A study of Mus musculus with 8 samples.

Results

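The genes described are 10 transcripts of the interleukin-1 (IL-1) system, taken from the 25124 genes of an RNA-seq table by their symbols alone: Il1a, Il1b, Il1rn, Il18 and Il18bp (ligands and antagonists), Il1r1, Il1r2 and Il1rap (receptors), and Nlrp3 and Casp1 (inflammasome). All 10 had a row, and 8 of the 10 passed the filter for testing, a mean of at least 0.5 FPKM (the number of fragments on a transcript scaled to its length and to the depth of the library) over the 8 libraries. Osteoclast precursor (OCP) cells were bone marrow-derived macrophages of mice, given as C57BL/6 of 6 to 8 weeks in the sample labels, while the paper's culture methods name ICR mice. Every culture received M-CSF (30 ng/mL), the growth factor that keeps macrophages alive. The 4 groups, of 2 libraries each, were no PRDX1 + no RANKL, PRDX1 + no RANKL (200 nM PRDX1), no PRDX1 + RANKL (100 ng/mL RANKL), and PRDX1 + RANKL (both), all for 48 h. RANKL is the cytokine that drives macrophages to become bone-resorbing osteoclasts. PRDX1 is peroxiredoxin 1, a peroxide-reducing enzyme, given here as a His-tagged protein made in bacteria and treated with an endotoxin-removal resin, and 0 of the 8 libraries was labelled as given heat-inactivated protein or lipopolysaccharide. Whether the cultures without PRDX1 received its buffer is not given in the sources used here. Nothing in the labels says that the 2 libraries of a group came from separate animals, so the p-values measure only the spread between these libraries.

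IL-1α and IL-1β are inflammatory ligands of the receptor IL-1R1, which signals together with its partner IL1RAP, and IL-1Ra, the product of Il1rn, occupies the same receptor without signaling. IL-1R2 is a decoy that binds the ligand and sends no signal, and IL-18BP does the same in solution for IL-18. IL-1β and IL-18 are made as inactive precursors that caspase-1 cleaves once the sensor NLRP3 has assembled an inflammasome, so transcript levels say nothing of the secreted cytokines. IL-1 is known to favor bone resorption, and Il1b and Nlrp3 are known to be transcribed in macrophages when Toll-like receptors such as TLR4 are engaged.

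Reads recovered from the FPKM values summed to 24542578 to 41712973 on genes per library. The 2 libraries of each group differed by more than sampling noise (chi-square per degree of freedom of 4.59 to 9.19). The 7 macrophage markers (Csf1r, Adgre1, Cd68, Itgam, Mertk, C1qa and Fcgr1) summed to 2472 to 2535 FPKM with neither protein, 2783 to 2858 with PRDX1, 1312 to 1432 with RANKL and 1863 to 1904 with both, and the 9 osteoclast markers to 34.4 to 35.3, 80.4 to 84.8, 1834 to 1931 and 235 to 243 FPKM in the same order. A change in bulk RNA cannot be told apart from a change in the share of cells that hold the transcript.

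Changes were tested with limma on log2(FPKM + 1) over 11700 genes, and a gene was called where its Benjamini-Hochberg adjusted p was under 0.05 and its fold change at least 1.5. This scale understates the change of genes near 0. PRDX1 raised 3 of the 8 tested members without RANKL (Il1b, Il1rn and Il18bp) and 4 of 8 with RANKL (the same 3 and Nlrp3). It lowered 0 in both (limma), where 1 member without RANKL (Nlrp3) and 0 with RANKL were lower at an unadjusted p under 0.05, and voom called 0 lower. The share of all genes at that unadjusted threshold was not computed. Such counts, here and below, cannot be set against the shares of called genes. Of all genes tested, 3.80% were called higher and 1.99% lower by PRDX1 without RANKL, and 6.03% higher and 4.17% lower with RANKL. Il1b passed the filter only through the PRDX1 groups, so its place in these counts was fixed in part by its level there. An exact permutation test of 2 libraries against 2 cannot go below p = 0.333, so each call rests on the spread shared across genes.

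**Figure D1:**
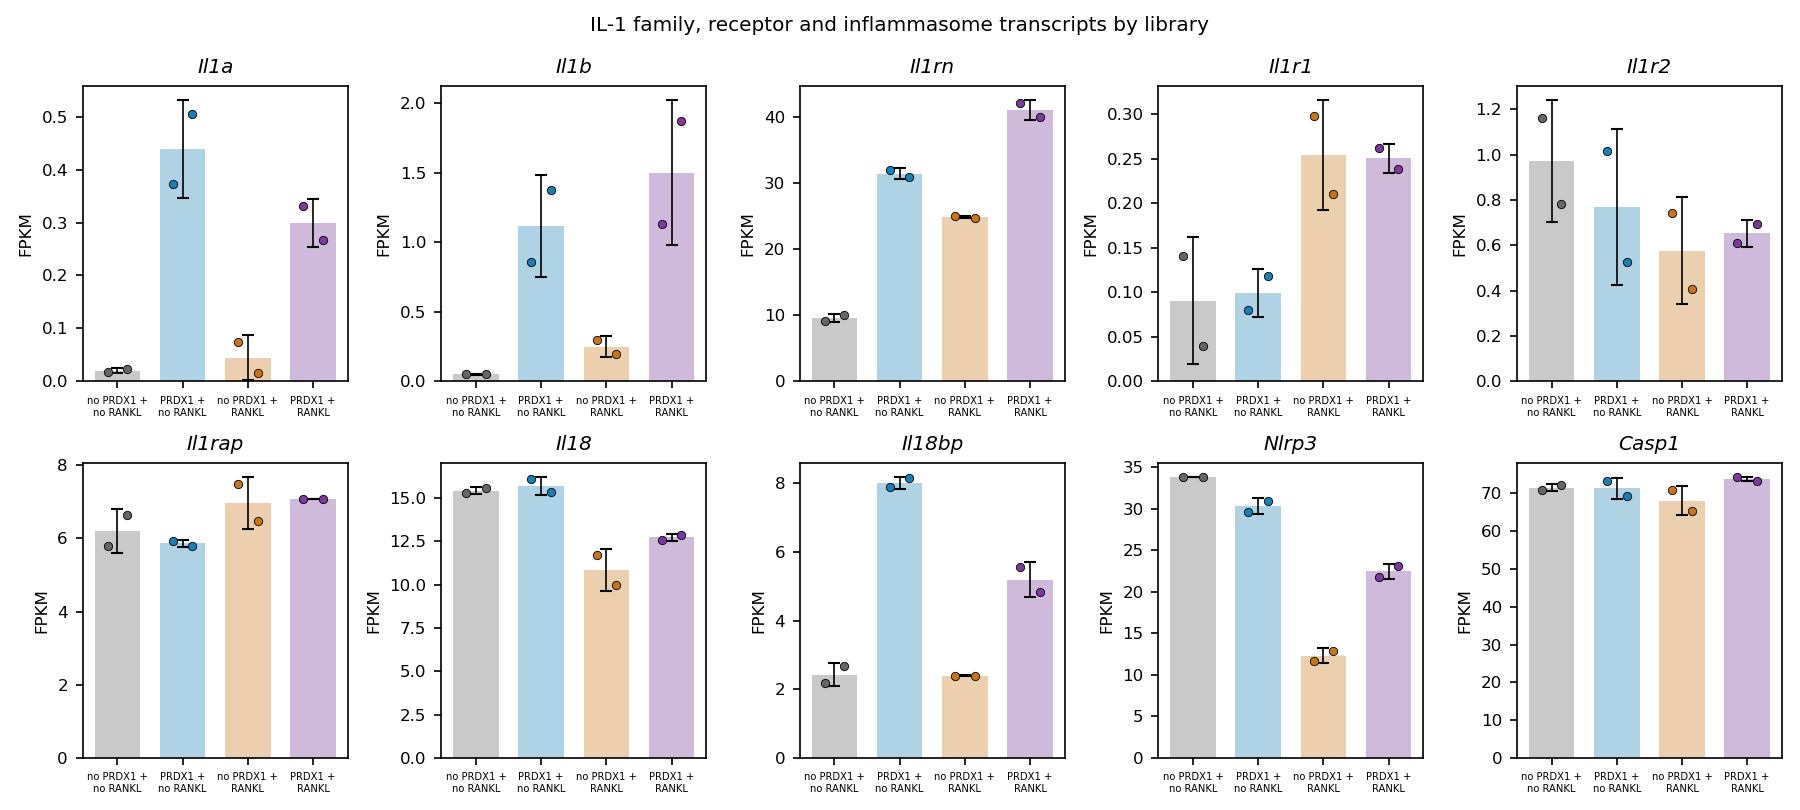
Level of each of the 10 transcripts in FPKM (vertical axis, own scale per gene) in the 4 groups, with bars at the mean of 2 libraries, error bars of 1 SD and a point per library. Il1a, Il1b, Il1rn and Il18bp were higher in both PRDX1 groups than in the matching groups without PRDX1, Nlrp3 was lowest with RANKL alone, and Casp1 lay between 65.4 and 74.2 FPKM in all 8 libraries.

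The windows of 250 bases before the start of the transcript the table lists are shown for the 4 members called in a PRDX1 comparison, since the study concerns NF-κB. They are RefSeq sequences of GRCm38.p6, the assembly of mm10, read 5′ to 3′ on the strand of the gene. Capitals mark a match to the NF-κB consensus, to AP-1 (TGANTCA) or to the interferon-stimulated response element, each searched on both strands.
Il1b, chr2:129371140-129371389, minus strand: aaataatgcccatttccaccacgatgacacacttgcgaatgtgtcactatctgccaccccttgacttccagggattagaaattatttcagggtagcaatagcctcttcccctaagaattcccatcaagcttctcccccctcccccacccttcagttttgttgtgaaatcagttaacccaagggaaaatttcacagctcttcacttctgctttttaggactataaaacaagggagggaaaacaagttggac
Il1rn, chr2:24345041-24345290, plus strand: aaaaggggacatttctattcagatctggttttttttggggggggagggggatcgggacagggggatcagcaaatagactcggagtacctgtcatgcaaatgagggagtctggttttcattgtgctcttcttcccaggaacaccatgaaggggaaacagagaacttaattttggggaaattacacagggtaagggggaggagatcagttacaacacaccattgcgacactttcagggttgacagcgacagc
Il18bp, chr7:102018233-102018482, minus strand: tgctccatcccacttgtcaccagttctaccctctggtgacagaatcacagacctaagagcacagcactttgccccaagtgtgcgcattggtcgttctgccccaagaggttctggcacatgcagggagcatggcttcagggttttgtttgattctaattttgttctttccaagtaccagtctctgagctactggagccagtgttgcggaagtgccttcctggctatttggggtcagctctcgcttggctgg
Nlrp3, chr11:59541319-59541568, plus strand: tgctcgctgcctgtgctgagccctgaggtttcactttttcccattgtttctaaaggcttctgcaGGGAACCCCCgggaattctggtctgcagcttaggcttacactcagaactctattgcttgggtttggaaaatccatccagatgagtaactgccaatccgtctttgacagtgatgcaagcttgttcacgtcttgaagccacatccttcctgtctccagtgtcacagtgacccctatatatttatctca
The only match in these 4 windows was the NF-κB consensus of Nlrp3, 186 to 177 bases before the start. Over the 9 members with a window at the listed start, the NF-κB consensus occurred in 2 (Nlrp3 and Il1r1), AP-1 in 1 (Il1a, 12 to 6 bases before the start) and the interferon element in 0. Among 32851 RefSeq windows of the same length, 7.25% held the NF-κB consensus, 6.75% AP-1 and 2.98% the interferon element. A second start of Il1rn, upstream of the listed transcript, held an AP-1 match 141 to 135 bases before it. The absence of these letters from 250 bases says nothing about binding elsewhere in the gene.

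Il1b (NM_008361, chr2:129364578-129371139, mm10, minus strand) encodes the IL-1β precursor and was close to undetected without PRDX1. Its levels were 0.050 and 0.054 FPKM (2 and 3 reads) in the untreated libraries, 0.858 and 1.38 (36 and 65 reads) with PRDX1, 0.301 and 0.195 (11 and 9 reads) with RANKL, and 1.13 and 1.87 (70 and 105 reads) with both. All 4 libraries with PRDX1 lay above all 4 without it, while the 2 PRDX1 groups overlapped each other. Since Il1b passed the filter only through the PRDX1 groups, its fitted changes by PRDX1 are descriptions. The log2 fold change by PRDX1 was 0.998 (SE 0.16, adjusted p = 0.00141) without RANKL and 0.99 (SE 0.16, adjusted p = 8.55e-04) with RANKL (limma). In a limma fit with no filter the adjusted p was 0.0109 and 0.00668. With voom on the recovered reads the log2 changes were 4.14 and 2.53. The ratio of summed reads, corrected for library totals, was 21.6 (95% interval 8.97 to 68.1) without RANKL and 6.14 (3.86 to 10.3) with RANKL. These intervals cover counting error only and come from 5 and 20 reads in the groups without PRDX1.

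RANKL alone gave a ratio of summed Il1b reads of 4.62 (1.68 to 15.7), with both RANKL libraries above both untreated ones. The fitted log2 fold change was 0.25 (SE 0.16, adjusted p = 0.222) and was not called, but it became a call with a pseudocount of 0.1 or with voom on the recovered reads. The change by RANKL in the presence of PRDX1 was 0.24 (SE 0.16, adjusted p = 0.281). Il1b shares 25 exonic bases with Il1bos, an antisense gene, and since reads were counted on both strands those of the pair cannot be told apart there.

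Il1a (NM_010554, chr2:129299610-129309972, minus strand), which encodes IL-1α, was also higher with PRDX1, at a lower level, and its mean of 0.201 FPKM kept it out of the test. It had 0.017 and 0.024 FPKM (1 and 2 reads) in the untreated libraries, 0.373 and 0.504 (23 and 35 reads) with PRDX1, 0.075 and 0.015 (4 and 1 reads) with RANKL, and 0.331 and 0.267 (30 and 22 reads) with both. The 4 libraries with PRDX1 again lay above the 4 without it. The ratio of reads by PRDX1 was 20.7 (6.74 to 103) without RANKL and 7.30 (2.94 to 23.4) with RANKL, from 3 and 5 reads in the groups without PRDX1. The interval for RANKL alone, 0.374 to 12.4 around a ratio of 1.92, included no change. In a fit of 17377 genes with no filter, the log2 fold change of Il1a by PRDX1 was 0.49 (adjusted p = 0.00237) without RANKL and 0.31 (adjusted p = 0.00691) with RANKL, under the fold threshold on this scale. Il1a shares 222 exonic bases with the antisense gene Gm14023.

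Il1rn (NM_001159562, chr2:24345291-24351491, plus strand), which encodes the receptor antagonist, was far more abundant than either ligand and responded to both proteins. Its levels were 9.12 and 9.99 FPKM untreated, 32.1 and 30.9 with PRDX1, 25.02 and 24.8 with RANKL, and 42.1 and 40.0 with both. No 2 groups overlapped, and their order was untreated, RANKL, PRDX1 and both. PRDX1 raised Il1rn by 1.62 (SE 0.06, adjusted p = 9.40e-08) without RANKL and by 0.70 (SE 0.06, adjusted p = 1.18e-05) with RANKL. RANKL raised it by 1.30 (SE 0.06, adjusted p = 5.19e-08) without PRDX1, and by 0.37 (SE 0.06, adjusted p = 9.53e-04) with PRDX1, which was under the fold threshold. The PRDX1 effect was smaller with RANKL than without it (difference of the log2 changes -0.92, SE 0.09, adjusted p = 5.41e-05), so that the increase with both was less than the sum of the 2 separate log2 changes.

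**Figure D2:**
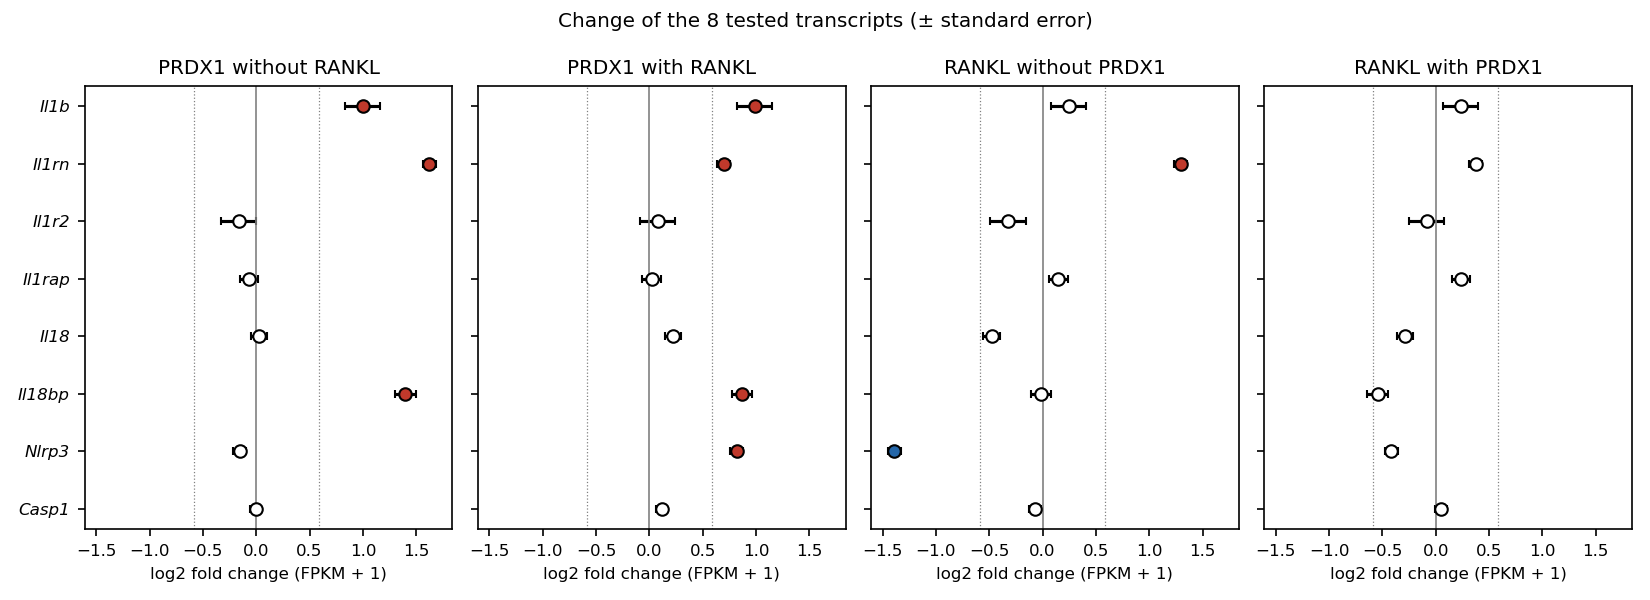
Log2 fold change of the 8 tested transcripts (horizontal axis, log2(FPKM + 1) scale, limma) in 4 comparisons of 2 libraries against 2. Points show the fitted change with its standard error, filled red where called higher, blue where called lower and white where not called, and dotted lines mark a fold of 1.5. Il1b, Il1rn and Il18bp were red in both PRDX1 panels, and Nlrp3 was red only in the panel of PRDX1 with RANKL and blue only in that of RANKL without PRDX1.

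Il18 (NM_001357221, chr9:50554700-50581841, plus strand), the IL-18 precursor, was expressed in untreated cells and did not pass the test in any comparison. Its levels were 15.3 and 15.6 FPKM untreated, 16.1 and 15.4 with PRDX1, 11.7 and 9.97 with RANKL, and 12.6 and 12.9 with both. The 4 libraries with RANKL lay below the 4 without it, and the log2 change by RANKL was -0.48 (SE 0.08, adjusted p = 3.53e-04) without PRDX1 and -0.28 (SE 0.08, adjusted p = 0.0135) with PRDX1, both under the fold threshold. The change by PRDX1 was 0.02 (SE 0.08, adjusted p = 0.843) without RANKL and 0.22 (SE 0.08, adjusted p = 0.0415) with RANKL, the latter under the fold threshold.

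Il18bp (NM_001363982, chr7:102015074-102018232, minus strand), which encodes the soluble inhibitor of IL-18, rose with PRDX1 and not with RANKL. It had 2.20 and 2.67 FPKM untreated, 7.90 and 8.15 with PRDX1, 2.38 and 2.40 with RANKL, and 5.56 and 4.83 with both. The RANKL libraries fell inside the untreated range, and both PRDX1 groups lay above it. PRDX1 raised Il18bp by 1.40 (SE 0.10, adjusted p = 5.09e-06) without RANKL and by 0.87 (SE 0.10, adjusted p = 5.70e-05) with RANKL. The difference between these effects was -0.53 (SE 0.13, adjusted p = 0.0181), under the fold threshold, and its adjusted p ran from 0.0139 to 0.0852 over the alternatives (limma). RANKL in the presence of PRDX1 gave -0.54 (SE 0.10, adjusted p = 0.00141), also under that threshold, but it was called lower with a pseudocount of 0.1, under both other scalings, with voom, and without PRDX1 + RANKL replicate 1. Il18bp shares 80 exonic bases with Numa1, which lies on the other strand, so reads there cannot be assigned to one gene.

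Within a library, antagonist transcripts were fewer per IL-1 agonist transcript and more per IL-18 transcript where PRDX1 was present. The ratio of Il1rn to the sum of Il1a and Il1b, in FPKM, was 136 and 128 in the untreated libraries, 26.0 and 16.4 with PRDX1, 66.6 and 118 with RANKL, and 28.8 and 18.7 with both. All 4 libraries with PRDX1 were below all 4 without it while Il1rn itself was higher with PRDX1, and the denominator of the untreated ratios was 3 and 5 reads per library. The ratio of Il18bp to Il18 was 0.143 and 0.171 untreated, 0.491 and 0.531 with PRDX1, 0.204 and 0.241 with RANKL, and 0.442 and 0.376 with both, with the 4 PRDX1 libraries above the other 4. These ratios are given as descriptions with no test.

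**Figure D3:**
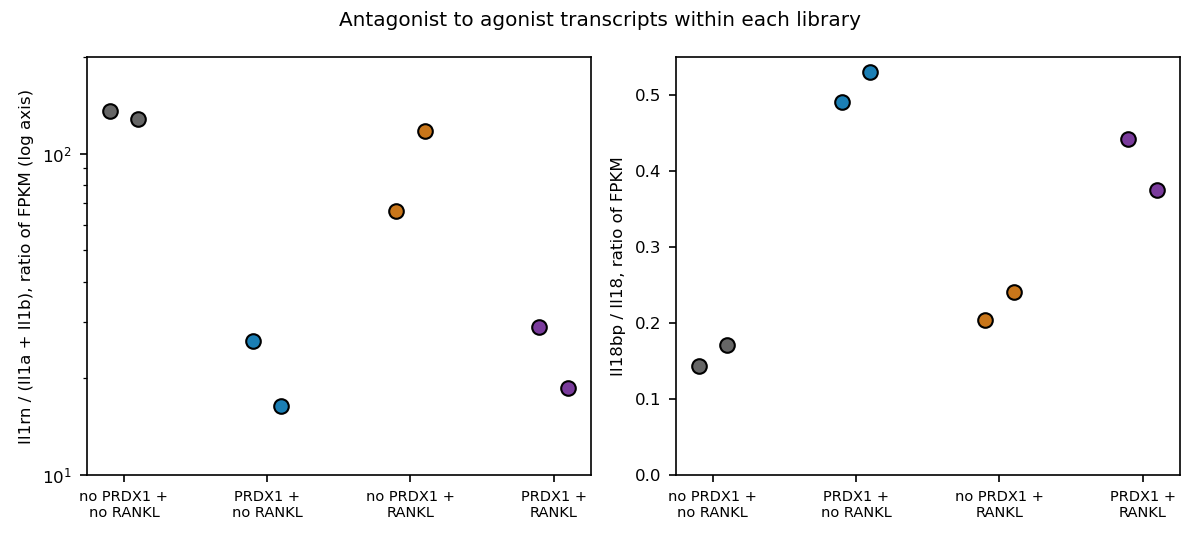
Ratio of antagonist to agonist transcripts in each of the 8 libraries, as a ratio of FPKM: Il1rn over Il1a plus Il1b on a log axis (left) and Il18bp over Il18 on a linear axis (right), with 2 points per group. The 4 PRDX1 libraries lay at 16.4 to 28.8 against 66.6 to 136 for the others on the left, and at 0.376 to 0.531 against 0.143 to 0.241 on the right.

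Of the 3 receptors, the 2 that were tested (Il1rap and Il1r2) were called in no comparison. Il1rap (NM_008364, chr16:26581705-26717748, plus strand), the accessory chain, was the most abundant of the 3, with 5.78 and 6.62 FPKM untreated, 5.92 and 5.80 with PRDX1, 7.48 and 6.47 with RANKL, and 7.08 and 7.07 with both. Its groups overlapped in 3 of the 4 comparisons, the exception being RANKL with PRDX1 (log2 change 0.24, SE 0.09, adjusted p = 0.0553). The changes by PRDX1 were -0.07 (SE 0.09) and 0.02 (SE 0.09), and 552 of its exonic bases are shared with the antisense gene Gm20319.

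Il1r1 (NM_001123382, chr1:40266586-40316177, plus strand), the signaling chain, was at or below 0.298 FPKM in every library and was not tested. It had 0.141 and 0.040 FPKM (20 and 8 reads) untreated, 0.080 and 0.118 (12 and 20 reads) with PRDX1, 0.298 and 0.211 (39 and 35 reads) with RANKL, and 0.262 and 0.239 (58 and 48 reads) with both. Here it was the RANKL libraries, not the PRDX1 libraries, that were high, and the 4 with RANKL lay above the 4 without it. The ratio of reads by RANKL was 3.05 (1.95 to 4.90) without PRDX1 and 2.51 (1.67 to 3.85) with it, while that by PRDX1 was 1.22 (0.714 to 2.11) without RANKL and 1.01 (0.740 to 1.37) with it. In the fit with no filter its log2 change by RANKL was 0.20 (adjusted p = 0.0260) and 0.19 (adjusted p = 0.0533), under the fold threshold.

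Il1r2 (NM_001360801, chr1:40084714-40125230, plus strand), the decoy, had 1.16 and 0.782 FPKM untreated, 1.01 and 0.525 with PRDX1, 0.744 and 0.409 with RANKL, and 0.612 and 0.695 with both, from 16 to 39 reads per library. The replicates of the PRDX1 group and of the RANKL group were far apart, and the groups overlapped except for RANKL without PRDX1 (log2 change -0.32, SE 0.16, adjusted p = 0.115). The decoy exceeded the signaling chain in every library, by an FPKM ratio of 4.45 to 19.6 in the 4 libraries without RANKL and 1.94 to 2.91 in the 4 with RANKL.

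Nlrp3 (NM_001359638, chr11:59541569-59566953, plus strand), the inflammasome sensor, was expressed in untreated cells, fell with RANKL, and was higher when PRDX1 was added to RANKL. Its levels were 33.9 and 33.9 FPKM untreated, 29.7 and 31.0 with PRDX1, 11.7 and 12.9 with RANKL, and 21.8 and 23.1 with both. No 2 groups overlapped. RANKL alone lowered Nlrp3 by a log2 change of -1.39 (SE 0.06, adjusted p = 3.99e-08), and PRDX1 in the presence of RANKL raised it by 0.82 (SE 0.06, adjusted p = 5.07e-06). PRDX1 without RANKL gave -0.16 (SE 0.06, adjusted p = 0.0931), and RANKL with PRDX1 gave -0.42 (SE 0.06, adjusted p = 5.93e-04), under the fold threshold. The PRDX1 effect differed with RANKL by 0.97 (SE 0.09, adjusted p = 5.01e-05). Of the 7 macrophage markers, 5 fell with RANKL alone, beside 9.96% of all genes, and 4 rose with PRDX1 in the presence of RANKL, beside 6.03%, and their part in the changes of Nlrp3 was not tested.

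Casp1 (NM_009807, chr9:5298517-5307281, plus strand), the protease that matures IL-1β and IL-18, was the most abundant of the 10 transcripts and, of the 8 tested, the one with the narrowest range of group means. It had 70.9 and 72.1 FPKM untreated, 73.3 and 69.3 with PRDX1, 70.8 and 65.4 with RANKL, and 74.2 and 73.3 with both. The log2 changes ran from -0.07 (SE 0.05) by RANKL to 0.12 (SE 0.05, adjusted p = 0.107) by PRDX1 with RANKL, and none was called.

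RANKL raised 1 of the 8 tested members without PRDX1 (Il1rn) and lowered 1 (Nlrp3), where 11.8% of all genes tested were called higher and 9.96% lower. With PRDX1 it raised 0 and lowered 0 (limma), against 4.52% and 3.98% of all genes called, and voom on the recovered reads called 1 member. At an unadjusted p under 0.05 (limma) it changed 5 of 8, with no share of all genes at that threshold to set beside them. The interaction of PRDX1 and RANKL was called for 2 of 8 (Il1rn, with a smaller PRDX1 effect under RANKL, and Nlrp3, with a larger one), against 8.85% of all genes in either direction. The median log2 change of the 8 tested members by PRDX1 was 0.0098 without RANKL and 0.46 with RANKL, beside -0.04 and -0.06 over all 11700 genes, and it covers only members that passed the filter.

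Other genes of the IL-1 pathway were taken from 3 lists. Of 13 further IL-1 family ligands and receptors, 12 were found in the table and 4 were tested, while Il33, the ligand of ST2, had 1 read in 1 library and 0 in the other 7. PRDX1 without RANKL raised 1 of the 4 and lowered 2, where 3.80% of all genes were called higher and 1.99% lower, with a median log2 change of -0.42 beside -0.04 over all genes. One of the lowered genes, Il1rl1, passed the filter only through its high untreated libraries, so its place in this count and median was set by the level compared. With RANKL PRDX1 raised 0 and lowered 0 of the 4, where 6.03% of all genes were called higher and 4.17% lower (limma, with 3 at an unadjusted p under 0.05, and voom called 1, Il18rap, lower), with a median of -0.16.

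Il1rl1, which encodes ST2, the receptor of IL-33, had 4.04 and 3.55 FPKM untreated, 0.561 and 0.852 with PRDX1, 0.430 and 0.328 with RANKL, and 0.352 and 0.424 with both. The untreated libraries alone were high, and the gene was tested only because they were, so that its fall of -1.49 by PRDX1 without RANKL (SE 0.12, adjusted p = 1.37e-05) is a description, beside 0.01 (SE 0.12) with RANKL. Il1rl2, the IL-36 receptor, moved the other way, from 0.271 and 0.252 FPKM untreated to 1.38 and 1.17 with PRDX1, 1.09 and 1.04 with RANKL, and 1.37 and 1.71 with both (log2 change by PRDX1 0.85, SE 0.11, adjusted p = 3.23e-04 without RANKL, and 0.30, SE 0.11 with RANKL). Il18rap, the accessory chain of the IL-18 receptor, had 1.39 and 0.948 FPKM untreated, 0.543 and 0.314 with PRDX1, 1.96 and 1.33 with RANKL, and 1.14 and 0.939 with both, and PRDX1 without RANKL lowered it by -0.60 (SE 0.15, adjusted p = 0.0148). That call was lost without no PRDX1 + no RANKL replicate 1 (-0.45) or without PRDX1 + no RANKL replicate 2 (-0.48). Il18r1, the ligand-binding chain of the IL-18 receptor, had at most 6 reads in any library.

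Of the 18 genes of IL-1 receptor signaling, from MYD88 and the IRAK kinases to the IκB proteins, all 18 were tested, and PRDX1 raised 1 without RANKL and 2 with RANKL, beside 3.80% and 6.03% of all genes. It lowered 0 in both (limma), beside 1.99% and 4.17% of all genes called lower, and voom called 0 lower. At an unadjusted p under 0.05 (limma), 4 and 6 were lower, with no share of all genes at that threshold to set beside them. The medians were -0.0013 without and 0.0072 with RANKL, beside -0.04 and -0.06 over all genes, and Myd88 itself lay between 44.7 and 49.4 FPKM in all 8 libraries. Nfkbia, which encodes IκBα, the inhibitor that NF-κB itself induces, had 28.0 and 24.7 FPKM untreated, 57.0 and 58.2 with PRDX1, 179 and 184 with RANKL, and 145 and 145 with both. PRDX1 raised it by 1.10 (SE 0.06, adjusted p = 8.56e-07) without RANKL, and gave -0.32 (SE 0.06, adjusted p = 0.00167) with RANKL, under the fold threshold.

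With RANKL present, PRDX1 raised Nfkbiz and Irak3. Nfkbiz, the inducible nuclear IκB family member, had 3.68 and 3.22 FPKM untreated, 5.04 and 5.08 with PRDX1, 2.46 and 3.06 with RANKL, and 6.69 and 6.17 with both, a change of 0.99 (SE 0.10, adjusted p = 3.00e-05) by PRDX1 with RANKL and 0.45 (SE 0.10, adjusted p = 0.00725) without it. Irak3, the kinase-like protein that restrains IL-1 receptor and Toll-like receptor signaling, had 11.3 and 11.1 FPKM untreated, 12.1 and 13.2 with PRDX1, 7.96 and 8.50 with RANKL, and 14.2 and 13.6 with both (0.69, SE 0.07, adjusted p = 2.96e-05 with RANKL and 0.16, SE 0.07 without). For both genes the 2 RANKL libraries were the lowest of the 8.

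Of 21 further inflammasome genes, 18 were tested, and PRDX1 raised 0 and lowered 0 without RANKL, where 3.80% of all genes were called higher and 1.99% lower (limma, with 9 at an unadjusted p under 0.05, and voom called 1, Mefv, higher) and raised 1 and lowered 3 with RANKL, where 6.03% of all genes were called higher and 4.17% lower. The medians were 0.04 and 0.08, beside -0.04 and -0.06 over all genes. P2rx7, the ATP-gated channel that triggers NLRP3, was, like Nlrp3, lowest with RANKL alone, with 17.9 and 19.4 FPKM untreated, 17.7 and 19.7 with PRDX1, 10.6 and 9.72 with RANKL, and 16.5 and 18.3 with both (log2 change by PRDX1 with RANKL 0.72, SE 0.08, adjusted p = 6.13e-05).

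The 3 inflammasome genes that PRDX1 lowered in the presence of RANKL had been raised by RANKL alone. Gsdmd, the pore-forming effector of pyroptosis, had 37.7 and 37.2 FPKM untreated, 38.9 and 36.4 with PRDX1, 143 and 152 with RANKL, and 99.0 and 95.1 with both (-0.60, SE 0.05, adjusted p = 1.34e-05), and this call was lost under quantile normalization, under upper quartile scaling, and without either no PRDX1 + RANKL replicate 2 or PRDX1 + RANKL replicate 2. Pstpip1, the adaptor that binds pyrin, had 37.0 and 32.8 FPKM untreated, 40.6 and 42.4 with PRDX1, 77.5 and 86.7 with RANKL, and 44.9 and 45.9 with both (-0.84, SE 0.07, adjusted p = 9.70e-06). Nlrp10, an NLR family member, had 0.875 and 0.679 FPKM untreated, 0.741 and 0.582 with PRDX1, 2.27 and 2.35 with RANKL, and 0.634 and 0.772 with both (-0.96, SE 0.11, adjusted p = 7.66e-05). In all 3 genes the RANKL libraries were the highest of the 8.

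**Figure D4:**
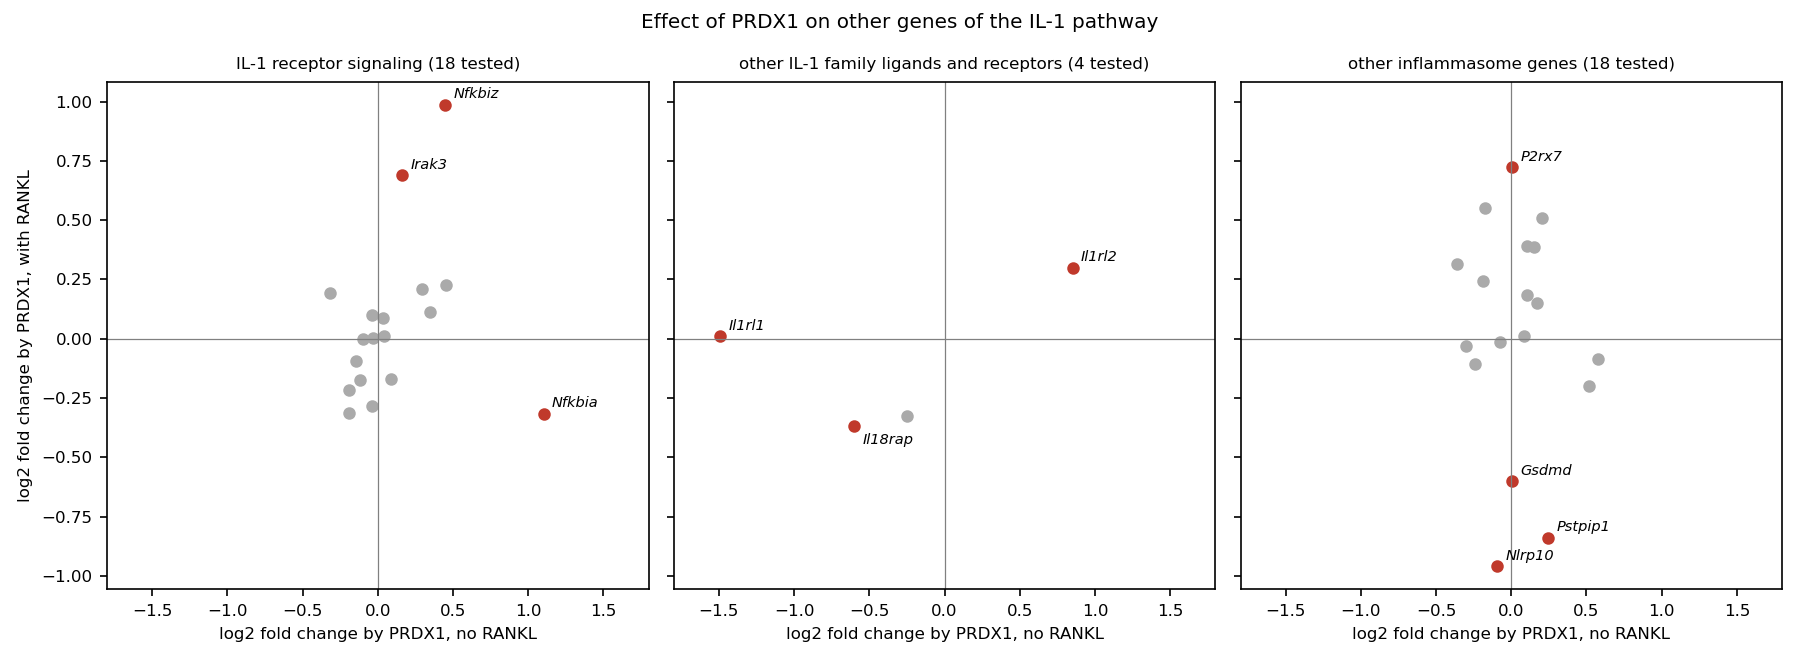
Log2 fold change by PRDX1 without RANKL (horizontal axis) and with RANKL (vertical axis) for the tested genes of 3 lists of the IL-1 pathway, 1 point per gene, red and named where called in either comparison. The comparisons use separate control libraries. Nfkbia, Il1rl1, Il1rl2 and Il18rap had their call in cells without RANKL (Il18rap at -0.60 without and -0.37 with RANKL), and Nfkbiz, Irak3, P2rx7, Gsdmd, Pstpip1 and Nlrp10 had theirs in cells with RANKL.

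Among all 11700 genes, those whose log2 values over the 8 libraries lay nearest to Il1rn after centering were Cd274 (PD-L1, root mean square difference 0.11), Klra2 (0.11) and Zmynd15 (0.15). Those nearest to Il18bp were Ddit3 (0.10), Gm5150 (0.13) and Gng11 (0.14). Those nearest to Nlrp3 were C5ar1 (the complement C5a receptor, 0.05), Snx30 (0.06) and Pea15a (0.07). Mean C5ar1 levels were 142 FPKM untreated, 123 with PRDX1, 49.2 with RANKL and 94.2 with both, the order of Nlrp3, whereas those of Cd274 were 3.46, 15.1, 10.2 and 17.0 FPKM, the order of Il1rn. These differences describe likeness over 8 libraries in 4 groups and carry no test.

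Summed levels of some marker lists of other cells were also higher with PRDX1. The 9 neutrophil markers summed to 8.23 to 12.4 FPKM untreated, 39.3 to 44.2 with PRDX1, 16.4 to 16.7 with RANKL and 34.6 to 38.2 with both, of which S100a8 and S100a9, also made by activated macrophages, were the main part. Of the 5 tested neutrophil markers, PRDX1 raised 4 without RANKL and 3 with RANKL, beside 3.80% and 6.03% of all genes, and Elane passed the filter only through the PRDX1 groups. Mean levels untreated, with PRDX1, with RANKL and with both were 0.571, 1.43, 0.460 and 1.46 FPKM for Mpo, 0.322, 1.33, 0.332 and 0.849 for Elane, and 0.0975, 0.757, 0.165 and 0.646 for Cxcr2, which was not tested, and Ly6g was at most 0.279 FPKM. The 6 stromal markers summed to 7.32 to 10.0, 15.9 to 16.1, 7.16 to 8.92 and 14.96 to 18.5 FPKM, and the 6 dendritic cell markers to 1.66 to 2.18, 2.31 to 2.61, 1.91 to 2.22 and 3.39 to 4.41 FPKM. Among the dendritic cell markers, Ccr7 was 0.070 and 0.050 FPKM untreated and 1.08 and 0.914 with PRDX1, while Cd209a was 1.49 and 1.01 untreated and 0.454 and 0.749 with PRDX1. Of the 6 mast cell and basophil markers 4 were at 0 in every library and the sum was at most 0.177 FPKM, and the 6 lymphocyte markers summed to at most 1.28 FPKM. The part of these cells in the changes of Il1a, Il1b, Il1rn and Il18bp was not tested.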

How the data were processed

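RNA-seq values of 8 libraries (4 groups of 2) were used. The authors aligned reads with HISAT2, per the labels, and counted them with HOMER on RefSeq exons of mm10 on both strands, keeping 1 transcript per gene. The deposited table holds FPKM for 25124 genes, and DESeq2 is also named per the labels but its results were not used. There were 0 other columns of per-sample values. FPKM multiplied by transcript length gave whole reads (within 0.1) for at least 99.9775% of the genes checked in each library, with library totals of 27284654 to 46171842.

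Genes with a mean of at least 0.5 FPKM (11700) were fitted with limma 3.58.1 in R 4.3.3 on log2(FPKM + 1), with 4 group means, an intensity trend and 4 residual degrees of freedom. This replaced a count test because the deposited values are FPKM, and voom on the recovered reads was run as an alternative. A gene was called at a Benjamini-Hochberg adjusted p under 0.05 over all genes tested and a fold of at least 1.5. The fit was tested on simulated data. Read ratios have exact binomial intervals (95%), which cover counting error only. Alternatives were a pseudocount of 0.1, no filter, a mean of at least 1 FPKM, quantile normalization, upper quartile scaling, the replicate block, only the groups compared, voom on recovered reads, and leaving out each library in turn.

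Members, lists and rules were chosen with earlier results of these data known. All 10 members were named, and from the pathway lists every gene called in a PRDX1 comparison. Of the 13 further IL-1 family genes, Il36rn was not matched to the table. Windows came from RefSeq (GRCm38.p6) and exon overlaps from GENCODE M21. Proteins were not analysed here.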

Additional observations from a re-analysis of the deposited data

Results flagged for a closer look

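The effect of PRDX1 differed between cells with and without RANKL, by limma's interaction term, for the genes below, at an adjusted p under 0.05. With the fold threshold the interaction was called for 2 of the 8 tested members, 1 of 4 further IL-1 family genes, 1 of 18 genes of IL-1 receptor signaling and 8 of 18 further inflammasome genes, beside 8.85% of all genes. Values are the log2 fold change by PRDX1 with RANKL minus that without it. For the 8 further inflammasome genes called, 3 differences were positive and 5 negative. They include Ninj1 (0.73), Txnip (0.68), Casp4 (-0.72) and Mefv (-0.66), which were called in neither PRDX1 comparison. For Il1rn the difference was -0.92 (adjusted p = 5.41e-05), for Il18bp -0.53 (adjusted p = 0.0181) and for Nlrp3 0.97 (adjusted p = 5.01e-05). For Il1rn and Il18bp the effect was an increase in both settings and smaller with RANKL. The difference of Il18bp was under the fold threshold, and its adjusted p was 0.0588 with no filter, 0.0852 with voom, 0.0606 without no PRDX1 + no RANKL replicate 1, 0.0591 without PRDX1 + no RANKL replicate 2 and 0.0828 without PRDX1 + RANKL replicate 2. It was called, which took the members called to 3, with a pseudocount of 0.1 (-0.61, adjusted p = 0.0294), without no PRDX1 + no RANKL replicate 2 (-0.63, adjusted p = 0.0139) and without PRDX1 + RANKL replicate 1 (-0.62, adjusted p = 0.0242).

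The pathway genes were named because PRDX1 changed them in one of the comparisons, so a difference between its effects was in part built into their choice. Among IL-1 family receptors the difference was 1.504 for Il1rl1 (adjusted p = 1.71e-04), tested only through its high untreated libraries, and -0.55 for Il1rl2 (adjusted p = 0.0291). Among genes of IL-1 receptor signaling it was -1.42 for Nfkbia (adjusted p = 2.81e-06), 0.53 for Irak3 (adjusted p = 0.00355) and 0.54 for Nfkbiz (adjusted p = 0.0205). Among inflammasome genes it was -1.08 for Pstpip1 (adjusted p = 5.12e-05), -0.86 for Nlrp10 (adjusted p = 0.00313), -0.61 for Gsdmd (adjusted p = 3.41e-04) and 0.72 for P2rx7 (adjusted p = 0.00145). For Nfkbia, PRDX1 gave a higher level than its control in both libraries without RANKL and a lower one in both libraries with RANKL. Over the alternatives the adjusted p ran from 2.60e-04 to 0.118 for Il1rl2 and from 0.00535 to 0.0809 for Nfkbiz. Both were under the fold threshold, and both were called with a pseudocount of 0.1 (-1.43 and 0.65), with voom (-1.75 and 0.64) and without PRDX1 + RANKL replicate 2 (-0.65 and 0.59). Il1rl2 was also called without PRDX1 + no RANKL replicate 2 (-0.62), and Nfkbiz without no PRDX1 + no RANKL replicate 2 (0.61) or no PRDX1 + RANKL replicate 2 (0.65). The groups of 2 libraries were too small to look for an outlying library.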

How the results depend on the processing

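All 11 calls of members kept their direction and stayed called under every alternative in which the gene was tested, and a minimum of 1 FPKM took Il1b out of the test. The calls of Il1b by PRDX1 are descriptions, since the gene passed the filter only through the PRDX1 groups. The number of members called stayed within 1.5 times its value except for RANKL with PRDX1. There it was 0 and became 1 (Il18bp, lower) with a pseudocount of 0.1, quantile normalization, upper quartile scaling or voom on the recovered reads. Of all 11700 genes, 466 were called lower by RANKL with PRDX1 in the main fit, and 605, 563, 542 and 639 under these settings. As libraries were left out, the log2 change of Il18bp in this comparison ran from -0.63 to -0.46.

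The number of members called by RANKL without PRDX1 was 2, and 3 (Il1b added) with a pseudocount of 0.1 or voom. Of all genes, 1383 were called higher in the main fit of this comparison, and 1671 and 1702 under these settings. Its balance over all genes turned with the scaling. The main fit called 1383 higher and 1165 lower, quantile normalization 1088 and 1322, and upper quartile scaling 1153 and 1302. By the replicate numbers of the columns the libraries were not paired, though the folder names in the table's header carry other numbers for some of them: same-numbered libraries deviated from their group means with correlations of 0.0085 to 0.096, and with the replicate block the counts stayed at 3 and 4 by PRDX1, 2 and 0 by RANKL and 2 for the interaction, with 0 results changed.

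The interaction of Il1b was -0.0094 on the log2(FPKM + 1) scale, -0.79 with a pseudocount of 0.1 and -1.61 with voom (adjusted p = 0.984, 0.309 and 0.129), and 0.17 under quantile normalization. Other differences close to 0 changed sign. Under quantile normalization the change of Il1rl1 by PRDX1 with RANKL was -0.12. Casp1 by PRDX1 without RANKL was 0.031 there. Upper quartile scaling gave 0.032 for that value and -0.0049 for Casp1 by RANKL with PRDX1. As libraries were left out, the ranges were -0.22 to 0.21 for the interaction of Il1b. For Il1r2 they were -0.36 to 0.037 by PRDX1 without RANKL, -0.077 to 0.23 by PRDX1 with RANKL and -0.28 to 0.12 by RANKL with PRDX1. For Il1rap they were -0.15 to 0.017 by PRDX1 without RANKL, -0.070 to 0.11 with RANKL and -0.0021 to 0.18 for the interaction. The remaining ranges were -0.0070 to 0.056 for Il18, -0.045 to 0.035 for Casp1, -0.041 to 0.054 for Gsdmd and -0.069 to 0.078 for P2rx7 by PRDX1 without RANKL, -0.11 to 0.086 for Il18bp by RANKL without PRDX1, and -0.0435 to 0.063 for Il1rl1 by PRDX1 with RANKL. The cause was not tested. A library left out leaves 1 in its group, whose spread is taken from the others. Depth limits Il1a, Il1b, Il1r1 and Il1r2, with 1 to 105 reads per library.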

Other observations

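RANKL changed several inflammasome genes, and some of them were not called in either PRDX1 comparison. Of 18 tested inflammasome genes other than Nlrp3 and Casp1, RANKL without PRDX1 raised 5 and lowered 4, where 11.8% of all genes were called higher and 9.96% lower. Of these, Mefv and Casp4 (raised) and Ninj1, Panx1 and Txnip (lowered) were called in neither PRDX1 comparison. Gsdmd, Pstpip1 and Nlrp10 (raised) and P2rx7 (lowered) were also called by PRDX1 with RANKL. RANKL with PRDX1 raised 3 and lowered 0, where 4.52% were called higher and 3.98% lower (limma, with 4 lower at an unadjusted p under 0.05 and 0 called lower with voom). Mefv, which encodes pyrin and was chosen for mention after its values were seen, had 0.307 and 0.171 FPKM untreated, 0.848 and 0.845 with PRDX1, 18.9 and 19.4 with RANKL, and 17.6 and 18.4 with both. RANKL raised it by 4.02 (SE 0.08, adjusted p = 1.76e-10) without PRDX1 and by 3.36 (SE 0.08, adjusted p = 7.49e-09) with PRDX1, on the log2(FPKM + 1) scale. The change of Mefv by PRDX1 was 0.58 (SE 0.08, adjusted p = 6.24e-04) without RANKL, under the fold threshold, and -0.08 (SE 0.08, adjusted p = 0.450) with RANKL. These changes differed by -0.66 (SE 0.12, adjusted p = 0.00281).

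Il1f9, the older symbol of the IL-36γ gene, was the only IL-36 ligand of those matched to have reads. It had 6 and 2 reads untreated, 14 and 8 with PRDX1, 25 and 17 with RANKL, and 30 and 13 with both, and was below the filter.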
